A study of Mus musculus with 45 samples.

Results

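A set of 3000 chromatin regions became more accessible within 1 to 2 h of SOX2 depletion in mouse embryonic stem cells, out of 184964 open chromatin regions (OCRs) counted by ATAC-seq. The regions were chosen by their measured values in SOX2-FKBP cells. Levels are given as CPM, the count scaled to a common library total, counting only peaks outside the mitochondrial genome. A region was kept if its mean level at 2 h was at least 4 CPM and if its mean level was at least 1.5 times that of non-treated (NT) cells at both 1 h and 2 h. ATAC-seq cuts accessible DNA with a transposase, so the number of fragments over a region measures how open it is. In each of 3 lines, SOX2, OCT4 or NANOG carries an FKBP degron, and the small molecule dTAG-13 (500 nM) brings the tagged protein to the proteasome. The methods describe homozygous clones for the SOX2 and NANOG tagging. OCT4-FKBP came from another laboratory, and the methods do not say whether it is homozygous or clonal. SOX2-FKBP and NANOG-FKBP were made in E14-type cells of 129/Ola background and OCT4-FKBP in V6.5 cells, so line and genetic background cannot be told apart. The methods give culture on gelatin in serum-free medium with LIF, the MEK inhibitor PD0325901 and the GSK3 inhibitor CHIR99021 for the E14-type lines. They give no other culture for OCT4-FKBP and do not mention feeders. NT cells received DMSO. SOX2-FKBP was sampled at NT, 0.5, 1, 2, 6 and 24 h with 2 libraries each. OCT4-FKBP was sampled at NT, 2, 6 and 24 h with 2 libraries each, and NANOG-FKBP at the same times with 2 NT libraries and 3 per treated time. The labels give the source as embryo. The methods give duplicates for OCT4 and NANOG, although 3 libraries per treated time are labelled for NANOG-FKBP, and for SOX2 duplicates with a further independent clone. Neither the labels nor the methods say which libraries, if any, come from that clone or whether replicates are separate cultures, so p-values measure the spread between these libraries.

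SOX2 and OCT4 are transcription factors that bind DNA together at a composite SOX-POU motif and hold many enhancers of pluripotent cells open. NANOG and the orphan nuclear receptor ESRRB bind many of the same enhancers. Regions that open, rather than close, when such a factor is removed are the ones followed here, and the lines in which OCT4 or NANOG is removed give measurements that played no part in choosing them.

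Total counts ranged from 5664738 to 10887645 per library in SOX2-FKBP, from 6378962 to 17575631 in OCT4-FKBP and from 1817191 to 12437876 in NANOG-FKBP. Mitochondrial peaks took 1.42% to 3.38% of counts in SOX2-FKBP and 2.19% to 6.65% in OCT4-FKBP. The 3 treated NANOG-FKBP libraries of replicate 2 stood apart, with 17.6%, 13.2% and 17% mitochondrial counts at 2, 6 and 24 h, and were shallow. The counts of regions gained and lost in NANOG-FKBP, and of regions that differ from OCT4-FKBP, are therefore also given without them. Of 10 embryonic stem cell marker genes, 9 had a peak at a start site and Pou5f1 was the exception, and these peaks summed to 253, 274 and 263 CPM in the NT cells of the SOX2-FKBP, OCT4-FKBP and NANOG-FKBP lines. Peaks at the starts of 6 of 7 primitive endoderm markers summed to 101, 136 and 131 CPM, those of 5 of 6 trophectoderm markers to 42.1, 77.1 and 61.1 CPM, and those of 4 of 7 fibroblast markers to 28.4, 45.8 and 38.1 CPM. No start-site peak was found for the fibroblast genes Col3a1, Prrx1 and Lum. None of the 3000 regions held 100 bp or more at 80% identity to the mitochondrial genome.

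The DNA at 8 of these regions is shown for the sites that the results below turn on: the region with the highest level, regions with the largest ratios, and regions that moved up or down most clearly when OCT4 was removed. Each line holds 100 bp either side of the peak summit on the plus strand of mm10, 201 bp in all, in lower case. Capitals mark matches on either strand to 8 patterns: SOX (ACAATG), POU octamer (ATGCNAAT), the longer SOX-POU composite, ESRRB (CAAGGTCA), the nuclear receptor half-site (AGGTCA), GRHL (AACCNGTT), TCF/LEF (ATCAAAG) and STAT (TTCCNGGAA).
Ggnbp1 region, chr17:27041328-27041528: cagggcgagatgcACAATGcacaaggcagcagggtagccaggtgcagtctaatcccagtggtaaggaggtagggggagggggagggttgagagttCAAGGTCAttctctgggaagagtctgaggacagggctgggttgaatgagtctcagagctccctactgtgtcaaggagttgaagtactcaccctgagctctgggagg
Cap2 region, chr13:46535486-46535686: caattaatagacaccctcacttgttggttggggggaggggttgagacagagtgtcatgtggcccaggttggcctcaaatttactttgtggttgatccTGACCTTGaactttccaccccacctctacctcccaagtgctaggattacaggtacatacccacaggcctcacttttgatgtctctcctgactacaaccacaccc
Eif5 region, chr12:111514176-111514376: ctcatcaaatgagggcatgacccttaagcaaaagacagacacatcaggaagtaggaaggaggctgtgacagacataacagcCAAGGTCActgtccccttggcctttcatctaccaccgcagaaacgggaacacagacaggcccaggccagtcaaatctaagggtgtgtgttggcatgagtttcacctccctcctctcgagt
Fbln1 region, chr15:85228603-85228803: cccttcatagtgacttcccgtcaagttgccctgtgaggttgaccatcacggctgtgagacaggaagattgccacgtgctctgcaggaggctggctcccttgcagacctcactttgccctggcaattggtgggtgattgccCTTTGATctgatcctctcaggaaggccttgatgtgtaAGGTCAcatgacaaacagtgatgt
Scube1 region, chr15:83640236-83640436: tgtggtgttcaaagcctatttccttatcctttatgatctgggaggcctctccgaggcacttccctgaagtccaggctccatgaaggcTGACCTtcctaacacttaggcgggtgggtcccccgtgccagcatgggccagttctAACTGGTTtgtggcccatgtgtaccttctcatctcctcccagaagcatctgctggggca
Fahd2a region, chr2:127449849-127450049: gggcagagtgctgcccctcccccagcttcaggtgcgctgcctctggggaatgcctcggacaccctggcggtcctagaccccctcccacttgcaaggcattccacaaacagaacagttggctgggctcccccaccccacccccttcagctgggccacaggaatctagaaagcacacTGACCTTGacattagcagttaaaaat
H2-T3 region, chr17:36192350-36192550: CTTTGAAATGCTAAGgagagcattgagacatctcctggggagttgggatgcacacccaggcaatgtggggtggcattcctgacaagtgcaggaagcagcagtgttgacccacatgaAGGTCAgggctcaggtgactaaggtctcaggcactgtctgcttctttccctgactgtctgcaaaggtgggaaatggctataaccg
Fam19a4 region, chr6:97046074-97046274: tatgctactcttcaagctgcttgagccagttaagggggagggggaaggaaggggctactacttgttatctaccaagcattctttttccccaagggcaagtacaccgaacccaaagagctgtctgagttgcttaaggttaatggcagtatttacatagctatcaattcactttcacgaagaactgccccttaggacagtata
The Ggnbp1, Cap2, Eif5 and Fahd2a windows hold an ESRRB match, which always contains the half-site, and the Ggnbp1 window also holds a SOX match near its left end. Half-site matches lie in the Fbln1, Scube1 and H2-T3 windows, beside a TCF/LEF match in the first and a GRHL match in the second. The H2-T3 window begins with a SOX-POU composite match. No letters of the Fam19a4 window matched.

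The regions were moderately open before depletion and stood higher already at 0.5 h. Their median level was 3.99 and 3.49 CPM in the NT libraries, 5.84 and 5.66 at 0.5 h, 6.95 and 6.25 at 1 h, 6.89 and 6.70 at 2 h, 6.47 and 6.18 at 6 h, and 6.08 and 5.34 at 24 h. Every treated library of SOX2-FKBP lay above both NT libraries. At 1 and 2 h this follows from the choice of the regions. The other times are set against the same NT libraries that the rule used, so they too are a description. Together they took 1.50% ± 0.13 of counts in NT cells (SD, n = 2), 2.24% ± 0.07 after 0.5 h, 2.68% ± 0.10 after 2 h and then 2.22% ± 0.26 after 24 h (SD, n = 2 each). The median ratio to NT was 1.50 after 0.5 h, 1.70 after 1 h and 1.78 after 2 h. It was 1.04, 1.04 and 1.07 over the 160432 regions tested in this line. At 2 h the middle 80% of ratios ran from 1.55 to 2.28, with a maximum of 4.59. In bulk libraries, more cells with an open site and more opening per cell cannot be told apart.

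**Figure D1:**
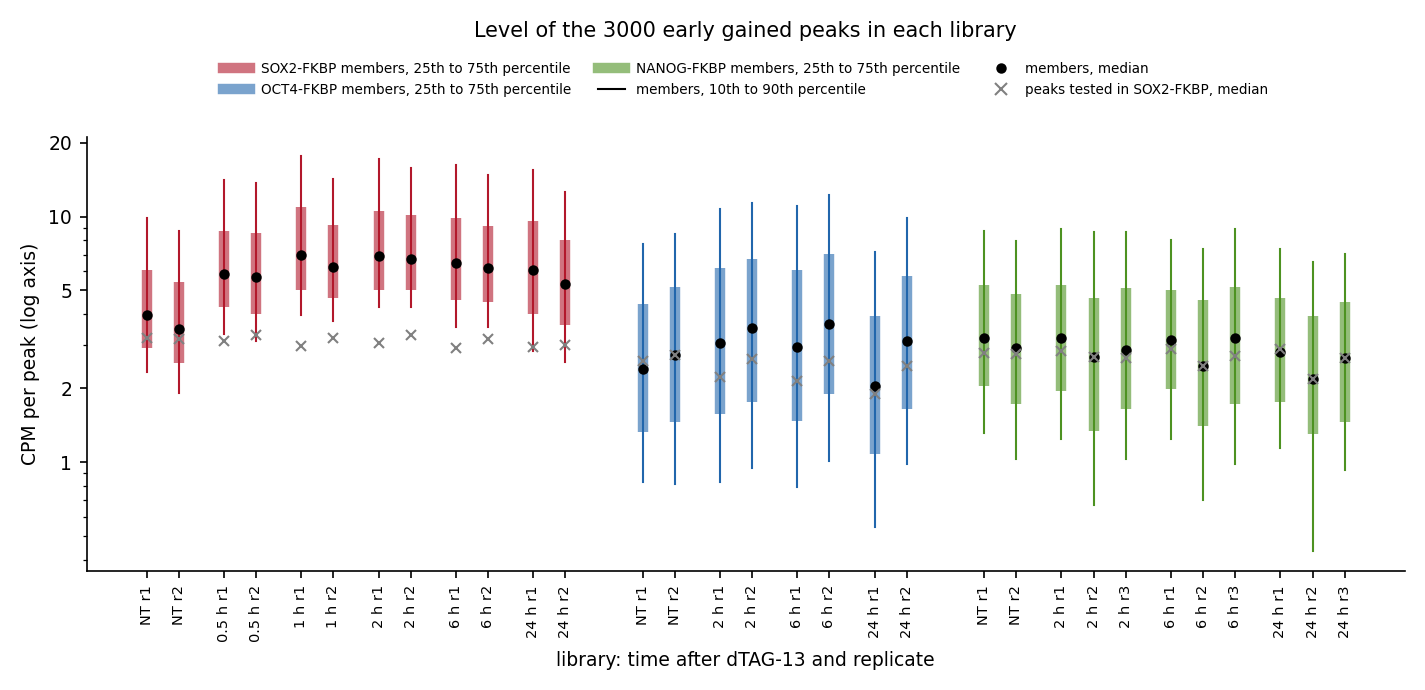
Levels of the 3000 regions in each of the 31 libraries, in CPM on a log axis: black dots mark medians, thick bars the 25th to 75th percentiles and thin lines the 10th to 90th, with crosses for the median of all regions tested in SOX2-FKBP. In SOX2-FKBP the medians of treated libraries lie above the NT medians of 3.99 and 3.49 CPM, in OCT4-FKBP they lie above NT at 2 and 6 h, and in NANOG-FKBP they do not rise.

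The edgeR quasi-likelihood test called 896 of the regions gained at 1 h (29.9%) and 1337 at 2 h (44.6%), against 0.889% and 1.46% of all tested regions. These counts use the contrasts that chose the regions and are given as a description. Both 2 h libraries lay above both NT libraries at 2950 regions, against 29.7% of all tested regions. Only 984 regions met the rule in both replicates on their own, 1883 in replicate 1 and 1926 in replicate 2. At the edge of the rule, the region chr12:16634115-16635031 near Ntsr2 had a ratio of 1.5 at 1 h and 1.76 at 2 h and was kept, and chr1:73663216-73664115 near Tns1 had 1.52 and 1.5 and was kept. The regions chr4:153187632-153189942 near Ajap1 (1.5 at 1 h after rounding and 1.55 at 2 h) and chr6:86630127-86631475 near Asprv1 (1.64 and, after rounding, 1.5) fell just short. By level, chr8:12330004-12330572 at 3.5 and 4.5 CPM and chr5:111650731-111651227 at 3.5 and 4.5 CPM at 2 h were just inside, and chr11:107849637-107850524 at 4.6 and 3.4 CPM and chr9:120818735-120819193 at 4.6 and 3.4 CPM just outside.

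Most of the gain lasted to 6 h, and at 24 h the ratios to NT were lower in the median and more widely spread. These ratios share the NT libraries with the rule, and comparisons with 2 h use a level chosen to be high, so both are a description. The median ratio to NT was 1.64 at 6 h and 1.44 at 24 h. The middle 80% of ratios ran from 1.23 to 2.25 at 6 h and from 0.833 to 2.43 at 24 h. Over all tested regions the middle 80% widened too, from 0.569 to 1.58 at 6 h to 0.451 to 1.70 at 24 h. At 0.5 h 1509 regions (50.3%), at 6 h 1956 (65.2%) and at 24 h 1378 (45.9%) were at least 1.5 times the NT level, against 8.69%, 12.8% and 16% of all tested regions. Both libraries lay above both NT libraries at 2604 regions at 6 h (86.8%) and 1816 at 24 h (60.5%), against 31.3% and 31.3% of all tested regions. In all, 1235 regions (41.2%) held a ratio of 1.5 at both late times, 721 at 6 h only, 143 at 24 h only and 901 at neither. At 6 h 925 regions (30.8%) and at 24 h 797 (26.6%) stood above their 2 h level. Neither these 2 groups nor the classes by both late times were counted over all tested regions, so nothing is read from their size. At 24 h 538 regions (17.9%) stood below NT, compared with 57 (1.9%) at 6 h. Of all tested regions 47.0% stood below NT at 24 h and 41.7% at 6 h.

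Within SOX2-FKBP, the late times were tested against 0.5 h and against each other. The groups compared are not in the rule, but the fit takes its scaling and spread from all 12 libraries, which include those of the rule. At 6 h against 0.5 h, 75 regions were called higher (2.5%) and 13 lower, against 0.334% and 2.13% of all tested regions, with a median log2 fold change of 0.13. Leaving out 0.5 h replicate 1 or 2, or 6 h replicate 1 or 2, gave 22, 16, 18 and 36 higher and 5, 3, 6 and 2 lower. At 24 h against 0.5 h, 375 were higher (12.5%) and 382 lower (12.7%), against 6.22% and 9.17%. Without 0.5 h replicate 1, 0.5 h replicate 2 or 24 h replicate 1, 203, 207 and 168 were higher, and without 0.5 h replicate 1, 0.5 h replicate 2 or 24 h replicate 2, 210, 232 and 207 were lower. At 24 h against 6 h, 39 were higher (1.3%) and 154 lower (5.13%), against 0.466% and 1.1%, with a median log2 fold change of -0.14. Without 6 h replicate 1, 6 h replicate 2 or 24 h replicate 1 the higher count was 16, 1 and 7, and without 6 h replicate 1, 6 h replicate 2, 24 h replicate 1 or 24 h replicate 2 the lower count was 43, 42, 79 and 30.

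**Figure D2:**
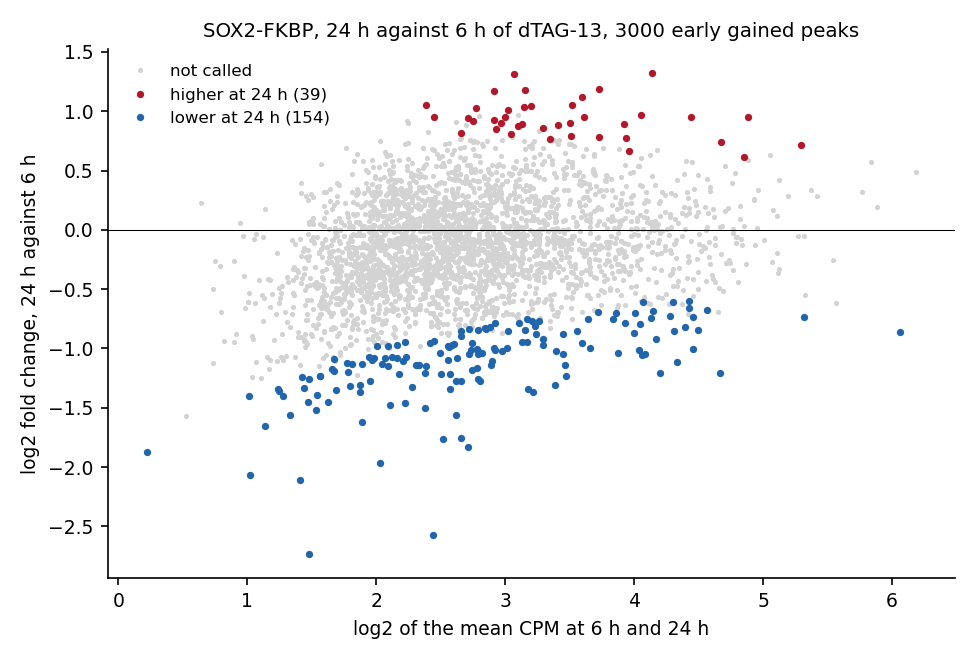
Log2 fold change of each of the 3000 regions between 6 h and 24 h of SOX2 depletion (vertical axis) against its mean level at those times, in log2 CPM (horizontal axis). Coloured points are the 39 regions called higher and the 154 called lower at 24 h by edgeR, and the grey cloud lies slightly below 0.

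The 3 regions described next had the smallest adjusted p among the 154 that fell after 6 h. How many of the 154 lay near developmental regulators was not counted. Calls at single regions held under every alternative run unless the text says otherwise. The region chr9:118470856-118472003, 6738 bp upstream of Eomes, a T-box factor of mesendoderm and trophoblast, had 9.44 and 10.5 CPM in NT libraries, 15.1 and 18.5 at 0.5 h, 13.8 and 17 at 2 h, 10.4 and 10.2 at 6 h and 3.48 and 2.13 at 24 h. Both 24 h libraries lay below every other library of the line, and 24 h was lower than 6 h (log2 fold change -1.83, SE 0.24, adjusted p = 5.43e-05). The region chr6:52311358-52311734, in an intron of the antisense gene Evx1os and 2002 bp upstream of Evx1, a homeobox gene of the primitive streak, had 2.14 and 2.38 CPM in NT, 4.8 and 4.96 at 6 h and 0.435 and 0.96 at 24 h (log2 fold change -2.73, SE 0.38, adjusted p = 0.000112 for 24 h against 6 h). The fall with the smallest adjusted p was at chr17:6479273-6479911, in an intron of the non-coding gene Gm26848 and nearest to Dynlt1b, a dynein light chain gene, with 11.8 and 8.41 CPM in NT, 16 and 14.8 at 2 h, 10.3 and 8.43 at 6 h and 1.74 and 1.28 at 24 h (log2 fold change -2.58, SE 0.28, adjusted p = 3.04e-06). At 24 h both libraries of this region were below both NT libraries.

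Regions that rose after 6 h included chr4:128793602-128794486, in an intron of Zfp362, a zinc-finger gene. It had 3.11 and 2.22 CPM in NT, 8.54 and 6.7 at 2 h, 11.2 and 9.46 at 6 h and 26.9 and 22.8 at 24 h, a steady climb with no overlap between 6 and 24 h (log2 fold change 1.32, SE 0.18, adjusted p = 0.000112). The region chr9:119425151-119425889, in an intron of Acvr2b, which encodes an activin receptor, had 16.3 and 13.9 CPM at 6 h and 30.9 and 25.7 at 24 h (log2 fold change 0.95, SE 0.17, adjusted p = 0.00221). That call was lost without 6 h replicate 2 or 24 h replicate 1 (adjusted p up to 0.107 over the alternatives run). In an intron of Scube1, a gene for a secreted and cell-surface EGF-domain protein, the region chr15:83636463-83637230 had 3.11 and 2.7 CPM in NT, 6.89 and 6.5 at 2 h, 6.15 and 3.74 at 6 h and 13 and 10.7 at 24 h (log2 fold change 1.31, SE 0.23, adjusted p = 0.00166). Its call was lost without 6 h replicate 2 (adjusted p up to 0.137 over the alternatives run).

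The most open regions at 2 h were broad and already open in NT cells. The region chr17:27038253-27041863, 8569 bp downstream of the Ggnbp1 start, reached the highest 2 h level. It had 61.4 and 47.4 CPM in NT, 75.5 and 77.7 at 0.5 h, 95.4 and 75.3 at 1 h, 93.8 and 91.1 at 2 h, 87.9 and 85.9 at 6 h and 51.7 and 41.2 at 24 h. All libraries from 0.5 to 6 h lay above NT, and at 24 h the levels overlapped those of NT. The fall from 6 to 24 h was called (log2 fold change -0.86, SE 0.15, adjusted p = 0.00207) but lost without 24 h replicate 2 (adjusted p up to 0.0909 over the alternatives run). Next came chr19:5839865-5843649, in an exon of Neat1, the long non-coding RNA that builds paraspeckles, with 42.7 and 45.4 CPM in NT and 82.1 and 70.03 at 2 h. The region chr11:99104848-99107255, 17652 bp upstream of Tns4, a focal adhesion gene, had 36.9 and 31.1 CPM in NT, 55.6 and 57.3 at 2 h, 37.2 and 34.4 at 6 h and 19 and 11.1 at 24 h, so that it was transiently above NT and ended below it. Its fall from 6 to 24 h was called (log2 fold change -1.20, SE 0.20, adjusted p = 0.000808) and was lost without 24 h replicate 2 (adjusted p up to 0.068 over the alternatives run). The other 3 of the 6 highest regions lay in an intron of Stpg1 (chr4:135531562-135533298), 5577 bp upstream of Klhdc8a (chr1:132291028-132293355) and 3724 bp upstream of Bahd1, a heterochromatin protein gene (chr2:118896141-118897911).

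The largest ratios, among regions of at least 8 CPM at 2 h, were 3.02 to 3.53. In an intron of the non-coding gene AC165259.1, chr17:45806722-45808086 rose 3.53-fold, from 5.74 and 4.13 to 16.7 and 18.1 CPM at 2 h. The Fbln1 region (chr15:85228239-85228937), in an intron of the fibulin-1 gene and shown above with its TCF/LEF match, went from 3.41 and 3.17 CPM in NT to 12 and 9.7 at 2 h and 6.74 and 6.51 at 24 h. The Gm26897 region (chr5:111617380-111618260), 116010 bp upstream of that gene, went from 7.01 and 4.44 CPM to 19.3 and 17.3 at 2 h, 25.8 and 25.6 at 6 h and 23.4 and 24.1 at 24 h. Its libraries at 6 and 24 h were the highest of the line, and 6 h exceeded 0.5 h (log2 fold change 1.44, SE 0.19, adjusted p = 6.16e-06). The Cap2 region (chr13:46534370-46535991), with an ESRRB match in an intron of an actin-regulator gene, held 11.8 and 5.4 CPM in NT, 28 and 26 at 2 h, 30.1 and 28.1 at 6 h and 34.8 and 22.7 at 24 h. The Eif5 region (chr12:111513839-111514884), 23740 bp upstream of a translation initiation factor gene and also with an ESRRB match, held 5.64 and 3.65 CPM in NT and 15.6 and 12.4 at 2 h. The sixth was chr13:58694603-58695278, 84088 bp upstream of the nucleoside transporter gene Slc28a3, with 3.5 and 2.38 CPM in NT and 10.2 and 8.3 at 2 h, and at most 0.277 CPM in any OCT4-FKBP library.

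The regions were mostly distal. Introns held 1473 (49.1%, against 45% of tested regions), intergenic sequence 1149 (38.3% against 35.1%), exons 180 (6.0% against 6.79%) and the 500 bp around a start site 198 (6.6% against 13.1%). Their median width was 845 bp against 711 bp, their GC content 51.5% against 50% and their NT level 3.73 against 3.16 CPM. They lay near one another: 562 (18.7%) had another of the 3000 within 10000 bp, against 5.17% of the other tested regions, and 1414 (47.1%) within 50000 bp, against 20.9%. A region called lost at 2 h of SOX2 depletion lay within 10000 bp of 211 (7.03%), against 12%. Their number per 100 tested regions was 2.79 on chromosome 4 and 2.68 on chromosome 11, and 0.98 on chromosome 3 and 0.46 on chromosome X. The median 2 h ratio over all tested regions moved with these numbers, at 1.09 on chromosome 4, 1.11 on chromosome 11, 1.03 on chromosome 3 and 0.974 on chromosome X, and its part in them was not tested.

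By nearest protein-coding start, the 3000 regions fell to 2116 genes, 1588 of them with 1 region and 168 with at least 3. Arhgef10l had the most, 12 of its 59 tested regions, and Msi2, an RNA-binding protein gene, had 11 of 93. The regions also included 11 of 64 near Gm26897, 10 of 102 near Zmiz1, 9 of 33 near Scarb1, which encodes a lipoprotein receptor, 9 of 99 near the Groucho family gene Tle3, 8 of 68 near the Notch target Hes1 and 6 of 45 near Gadd45g. The nearest gene is a label of position, and no expression was measured.

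The sequence at the summits differed from that of other OCRs in the share holding nuclear receptor, STAT and TCF/LEF letters on one side and SOX and CTCF letters on the other. In the 201 bp around the summit, the ESRRB pattern CAAGGTCA occurred in 345 regions (11.5%, 95% Wilson interval 10.4% to 12.7%), against 4.53% of tested regions, a ratio of 2.54. The half-site AGGTCA, which every ESRRB match contains, occurred in 998 (33.3%, 31.6% to 35%) against 18.5%. STAT letters (TTCCNGGAA) occurred in 59 (1.97% against 0.974%), TCF/LEF letters (ATCAAAG) in 200 (6.67% against 3.76%) and GRHL letters (AACCNGTT) in 85 (2.83% against 1.84%). STAT factors act downstream of LIF and TCF/LEF factors downstream of WNT. In contrast, SOX letters (ACAATG) occurred in 124 (4.13%, 3.48% to 4.91%) against 10.0%, and the SOX-POU composite, which overlaps the octamer, in 5 (0.167% against 0.483%). The POU octamer ATGCNAAT occurred in 113 (3.77%) against 3.86%, the CTCF motif in 26 (0.867% against 3.51%) and NRF1 letters (GCGCNTGC) in 46 (1.53% against 2.97%). With tested regions weighted to the same GC content, the ratio was 2.67 for ESRRB and 0.45 for SOX. Over whole peaks it was 2.10 for ESRRB and 0.81 for SOX. The intervals cover counting error only, and a match is not a bound site.

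**Figure D3:**
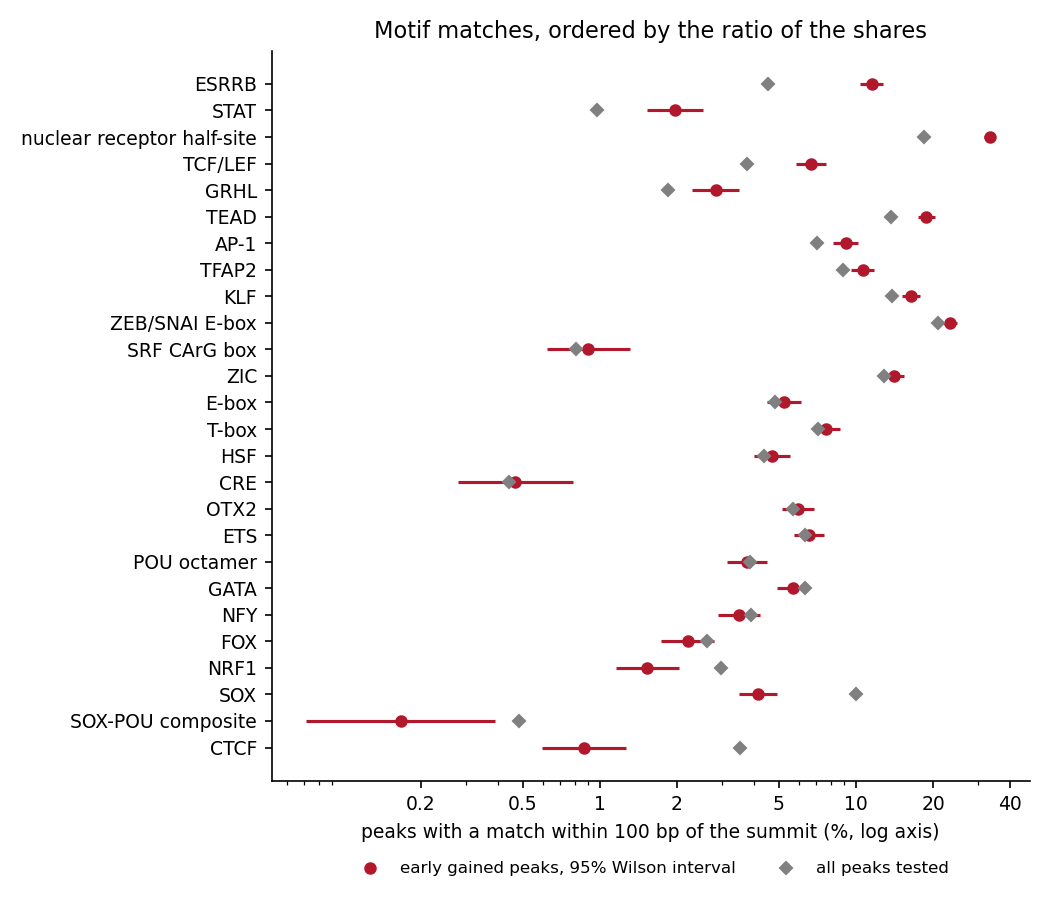
Share of summit windows (201 bp) that hold each searched pattern, in percent, for the 3000 regions (points with 95% Wilson intervals) and for all tested regions. ESRRB, at 11.5% against 4.53%, and the nuclear receptor half-site, at 33.3% against 18.5%, lie to the right of the tested share, while SOX, at 4.13% against 10.0%, and CTCF lie to its left.

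Removing OCT4, which played no part in the choice of these regions, was followed by gains at part of them. Their median level was 2.40 and 2.73 CPM in OCT4-FKBP NT libraries, 3.05 and 3.51 at 2 h, 2.93 and 3.66 at 6 h and 2.03 and 3.12 at 24 h. Both libraries at 2 and 6 h lay above both NT libraries, and the 24 h libraries lay on either side of them. At 2 h edgeR called 386 gained (12.9%) and 25 lost (0.833%), against 1.92% and 5.1% of the 166430 regions tested over the 3 lines. The median log2 fold change was 0.37, against 0.02 over all tested regions, and 75.7% lay above 0 against 52.2%. At 6 h 593 were gained (19.8%) and 73 lost (2.43%), against 4.12% and 7.97%, with a median of 0.35. At 24 h 401 were gained (13.4%) and 283 lost (9.43%), against 10.8% and 12.7%, with a median of 0.09. OCT4-FKBP replicates with the same number deviated together, and with the replicate as a block 725, 941 and 570 were gained and 61, 128 and 389 lost at 2, 6 and 24 h.

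Single libraries moved these counts. At 2 h the gained count was 167 without NT replicate 1, 203 without 2 h replicate 1 and 253 without 2 h replicate 2, and the lost count was 11 without NT replicate 2, 13 without 2 h replicate 1 and 11 without 2 h replicate 2. At 6 h the lost count was 29, 42 and 46 without NT replicate 2, 6 h replicate 1 and 6 h replicate 2. At 24 h the gained count was 223 without 24 h replicate 2, and the lost count was 163 and 118 without NT replicate 2 and 24 h replicate 1. With column totals as the scale, 317 regions were gained and 339 lost at 24 h, so that 48.3% rather than 58.6% of called regions were higher. That scale moved the median over all tested regions from -0.01 to -0.13 and that of the 3000 to -0.03.

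**Figure D4:**
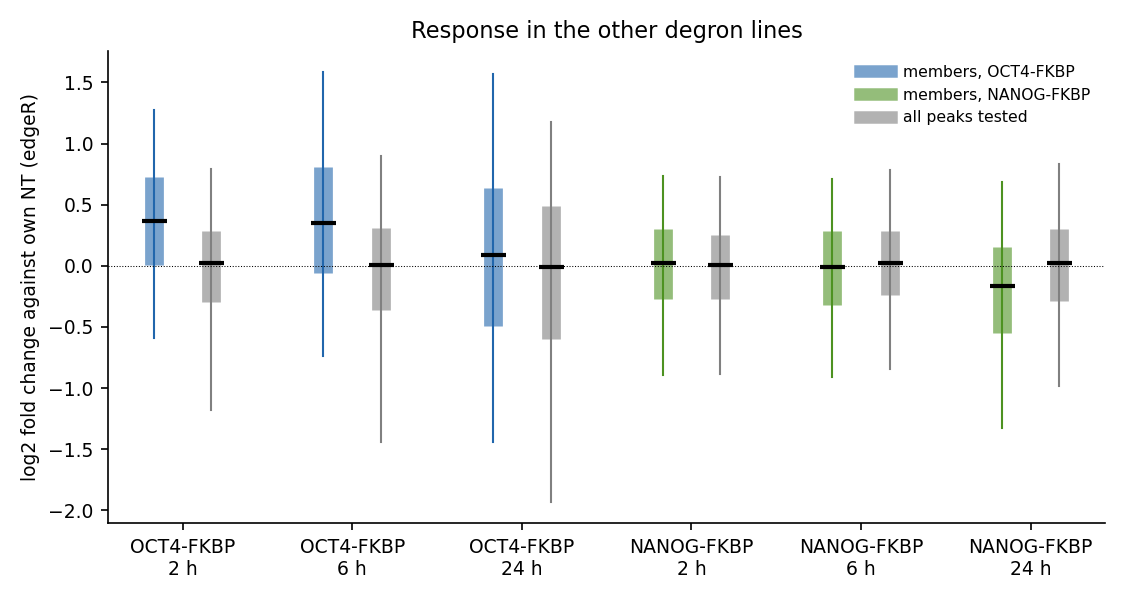
Log2 fold change against the line's own NT libraries at 2, 6 and 24 h after OCT4 or NANOG depletion, for the 3000 regions and for all 166430 tested regions: bars mark medians, boxes the 25th to 75th percentiles and whiskers the 5th to 95th. After OCT4 depletion the regions' medians are 0.37, 0.35 and 0.09, and after NANOG depletion 0.03, -0.01 and -0.16.

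The regions most clearly gained at 2 h of OCT4 depletion lay near Scube1, Siah2, Serpinh1 and Grhl3. The Scube1 region shown above (chr15:83639883-83641198) had 3.23 and 2.73 CPM in NT, 21.4 and 15 at 2 h, 30.8 and 23.4 at 6 h and 24.8 and 28.9 at 24 h, with no overlap between treated and NT libraries (log2 fold change 2.66, SE 0.33, adjusted p = 3.82e-07 at 2 h). In SOX2-FKBP the same region went from 8.17 and 4.92 CPM to 18.9 and 13.7 at 2 h and 24.2 and 15.8 at 24 h. In NANOG-FKBP it had 3.36 and 2.76 CPM in NT and 4.8, 2.67 and 4.31 at 2 h. The region chr3:58671368-58673070, 14072 bp from the start of Siah2, a ubiquitin ligase gene, had 4.31 and 5.58 CPM in NT, 26.9 and 15.9 at 2 h, 35.9 and 37.7 at 6 h and 14.6 and 25.3 at 24 h (log2 fold change 2.15, SE 0.28, adjusted p = 7.56e-07 at 2 h). In SOX2-FKBP its rise was short, from 14.6 and 9.84 CPM to 20.2 and 21.7 at 2 h and 14.3 and 12.2 at 24 h.

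Regions near Serpinh1, which encodes a collagen chaperone, and Grhl3, a grainyhead factor of surface epithelia, stood higher at 2 h and lower again at 24 h. The region chr7:99360720-99361483, 7931 bp upstream of Serpinh1, had 5.06 and 6.46 CPM in OCT4-FKBP NT cells, 23.7 and 20.4 at 2 h and 5.56 and 6.57 at 24 h (log2 fold change 1.97, SE 0.27, adjusted p = 1.65e-06 at 2 h). At 24 h its libraries overlapped NT, and in SOX2-FKBP too it fell from 6 to 24 h (log2 fold change -1.23, SE 0.19, adjusted p = 0.000463). The region chr4:135577367-135577940, 4065 bp upstream of Grhl3, had 4.48 and 5.7 CPM in NT, 24.1 and 17.5 at 2 h, 18.7 and 24.9 at 6 h and 6.1 and 9.86 at 24 h (log2 fold change 2.07, SE 0.30, adjusted p = 5.88e-06 at 2 h). Among the regions with the largest SOX2 ratios, the AC165259.1 region was gained at 2 h of OCT4 depletion (log2 fold change 1.32, SE 0.24, adjusted p = 0.000208). The Cap2 region went from 2.32 and 3.14 CPM in OCT4-FKBP NT cells to 12.8 and 6.61 at 2 h, 16.4 and 17.1 at 6 h and 9.21 and 25.3 at 24 h, with every treated library above NT (log2 fold change 2.65, SE 0.46, adjusted p = 4.40e-05 at 6 h). The Eif5 region was gained at 6 h (log2 fold change 1.35, SE 0.34, adjusted p = 0.00389).

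At 24 h of OCT4 depletion the clearest gains were again at Scube1 and at 2 other genes. The second Scube1 region (chr15:83636463-83637230) had 2.49 and 2.5 CPM in NT, 13.1 and 6.34 at 2 h and 27.5 and 30.7 at 24 h (log2 fold change 3.65, SE 0.31, adjusted p = 5.26e-11 at 24 h). The region chr4:63435253-63435859, in an intron of the stereocilia scaffold gene Whrn, had 1.08 and 0.756 CPM in NT and 10.3 and 10.2 at 24 h (log2 fold change 3.62, SE 0.33, adjusted p = 1.53e-10). The Fahd2a region (chr2:127449662-127450788), 5384 bp upstream of that gene and shown above with its ESRRB match, had 2.32 and 2.56 CPM in NT and 23.7 and 24.5 at 24 h (log2 fold change 3.41, SE 0.31, adjusted p = 1.55e-10). In SOX2-FKBP the Fahd2a region went from 4.77 and 2.86 CPM in NT to 9.91 and 6.65 at 6 h and 21.7 and 14.7 at 24 h (log2 fold change 1.19, SE 0.22, adjusted p = 0.00289 for 24 h against 6 h). The SOX2-FKBP call was lost without 6 h replicate 2 or 24 h replicate 1 (adjusted p up to 0.168 over the alternatives run).

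A small number of regions went the other way, opening when SOX2 was removed and closing when OCT4 was removed. The Fam19a4 region (chr6:97045616-97046852), in an intron of a gene for a secreted chemokine-like peptide, had 14.5 and 12.9 CPM in SOX2-FKBP NT cells, 27.4 and 23.2 at 2 h, 25.9 and 20.3 at 6 h and 12.6 and 9.07 at 24 h. In OCT4-FKBP it had 26.5 and 25.9 CPM in NT, 6.75 and 8.03 at 2 h, 4.15 and 6.13 at 6 h and 2.03 and 4.44 at 24 h (log2 fold change -1.78, SE 0.25, adjusted p = 3.04e-06 at 2 h). Treated and NT libraries did not overlap in either line at 2 h, with opposite signs. In SOX2-FKBP the rise follows from the choice of the regions, and 2950 of the 3000 show no such overlap. Only the fall in OCT4-FKBP is independent of that choice. The H2-T3 region (chr17:36192055-36192918), 2163 bp upstream of a non-classical MHC gene and holding the SOX-POU composite, went from 8.47 and 8.73 to 17.9 and 16.1 CPM at 2 h of SOX2 depletion. With OCT4 removed it went from 9.2 and 9.54 to 3.05 and 3.78 CPM (log2 fold change -1.40, SE 0.27, adjusted p = 0.000366). MHC genes of this family have close copies, and reads between copies were kept only if mapped with quality of at least 10. Regions in introns of Itpr1, a calcium channel gene (chr6:108236351-108236847, log2 fold change -1.97, SE 0.31, adjusted p = 2.39e-05), and Sptbn1, a spectrin gene (chr11:30156811-30157122, log2 fold change -2.62, SE 0.47, adjusted p = 0.000151), were lost at 2 h as well.

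**Figure D5:**
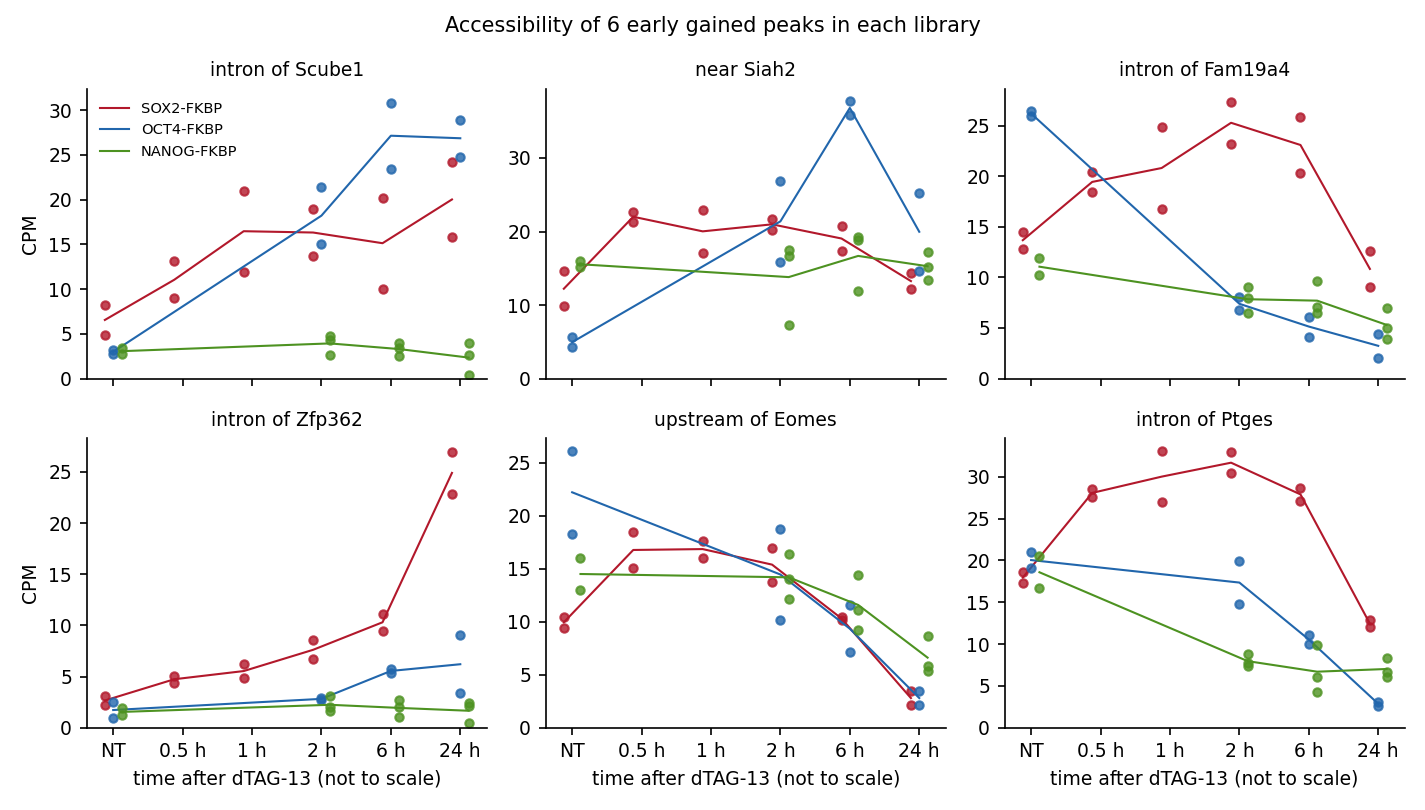
Levels in CPM of 6 named regions in every library of the 3 lines (points) with group means (lines), by time after dTAG-13, not to scale. The Scube1 and Siah2 regions rise after SOX2 and OCT4 depletion, the Fam19a4 region rises after SOX2 and falls after OCT4 depletion, and the Eomes and Ptges regions end below NT at 24 h in every line.

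By sequence, regions gained and lost upon OCT4 depletion differed in their share of POU and ESRRB letters, among other patterns. The octamer was in 1 of 386 gained at 2 h (0.259%) and in 4 of 25 lost (16%), and in 3 of 401 gained at 24 h (0.748%) and 26 of 283 lost (9.19%). Of the 113 regions with an octamer, 26 were lost at 24 h (23%), against 8.90% of those without, and their median log2 fold change at 2 h was -0.17 against 0.38. Regions with ESRRB letters were called gained at 2 h in 62 of 345 cases (18%), against 12.2% of the others, and at 6 h in 102 (29.6%) against 18.5%. Of the 273 regions with an AP-1 match (TGANTCA), 84 were gained at 6 h (30.8%), against 18.7% of the others. ESRRB and AP-1 letters did not stand alone. The 6 h share was 30.5% with TCF/LEF, 27.6% with half-site, 27.2% with ZEB/SNAI E-box (CACCTG) and 26.1% with TFAP2 letters (GCCNNNGGC). For some patterns it was lower than without the letters, as for the octamer (3.54% against 20.4%). Whatever their letters, 1.92% of all tested regions were called gained and 5.1% lost at 2 h of OCT4 depletion. At 6 h 4.12% were gained, and at 24 h 10.8% were gained and 12.7% lost. Calls by letters were counted only within the regions followed here. Whether these differences by letters are particular to them was therefore not tested.

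After NANOG depletion few of the regions passed the test, and at 2 and 6 h the share lost was near that of all tested regions. Their median level was 3.21 and 2.93 CPM in NT libraries, 3.20, 2.67 and 2.87 at 2 h, 3.14, 2.46 and 3.21 at 6 h and 2.80, 2.18 and 2.64 at 24 h. The libraries overlapped NT at 2 and 6 h, and all 3 at 24 h lay below both NT libraries. At 2 h edgeR called 2 gained and 31 lost (1.03%), against 0.0162% and 0.938% of all tested regions, and at 6 h 4 and 42 (1.4%), against 0.0367% and 1.08%. At 24 h 7 were gained and 126 lost (4.2%), against 0.288% and 2.25%, and the median log2 fold change was -0.16 against 0.03. Without the 3 mitochondria-rich libraries, the gained and lost counts were 1 and 23 at 2 h, 2 and 32 at 6 h and 9 and 114 at 24 h. The 2 regions gained at 2 h were nearest to Zdhhc19 and Rpl38, and the 4 at 6 h to Steap3, Plxdc1, Tgfbi and Stt3b, where Rpl38, Plxdc1, Tgfbi and Stt3b were named after their values were seen.

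Among NANOG-FKBP counts, the lost count at 2 h was 14, 20, 5 and 20 without NT replicate 1, NT replicate 2, 2 h replicate 1 and 2 h replicate 3. The lost count at 6 h was 21, 26 and 16 without NT replicate 1, NT replicate 2 and 6 h replicate 1. At 24 h the lost count was 55, 81 and 71 without NT replicate 1, 24 h replicate 1 and 24 h replicate 3. The gained counts at 2 h were 0, 0, 1 and 1 without NT replicate 2, 2 h replicate 1, 2 h replicate 2 and 2 h replicate 3. At 6 h they were 2, 0, 1 and 2 without NT replicate 1, NT replicate 2, 6 h replicate 1 and 6 h replicate 2. At 24 h they were 2, 2, 0 and 3 without NT replicate 1, NT replicate 2, 24 h replicate 1 and 24 h replicate 3.

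The clearest losses after NANOG depletion lay in non-coding and intronic sequence. The region chr9:64593102-64594561, in an intron of Megf11, a gene for an EGF-domain membrane protein, had 7.6 and 6.55 CPM in NT, 1.6, 2 and 2.05 at 2 h and 0.964, 2.18 and 1.59 at 24 h (log2 fold change -2.38, SE 0.32, adjusted p = 4.22e-06). The region chr9:41513463-41514133, nearest to Ubash3b, a tyrosine phosphatase gene, had 9.94 and 9.82 CPM in NT and 1.66, 0.871 and 1.72 at 24 h (log2 fold change -2.64, SE 0.36, adjusted p = 7.86e-06). The region chr1:135659151-135660378, in an intron of the non-coding gene Gm38399 and nearest to the neuron navigator gene Nav1, had 22.5 and 16.5 CPM in NT and 6.13, 8.71 and 5.29 at 24 h (log2 fold change -1.63, SE 0.22, adjusted p = 7.32e-06). In OCT4-FKBP the Nav1 region stood at 21.9 and 25 CPM in NT and 33.4 and 34.5 at 2 h (log2 fold change 0.58, SE 0.20, adjusted p = 0.0805). In none of these 3 did treated and NT libraries of NANOG-FKBP overlap at 24 h.

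Gains after NANOG depletion were few, and the calls of the 3 described here were lost without single libraries. The region chr16:32537930-32539102, in an intron of the palmitoyltransferase gene Zdhhc19, had 14.8 and 8.79 CPM in NT and 33.1, 23.4 and 18.7 at 2 h (log2 fold change 1.1, SE 0.27, adjusted p = 0.0244), a call lost without NT replicate 2 or 2 h replicate 1 and under a separate fit of the line (adjusted p up to 0.502 over the alternatives run). The region chr1:120292527-120293279, upstream of Steap3, a ferrireductase gene, had 0.292 and 0.172 CPM in NT and 2.31, 1.41 and 2.22 at 6 h (log2 fold change 3.06, SE 0.64, adjusted p = 0.00534), lost without NT replicate 1, NT replicate 2 or 6 h replicate 1 and under the DESeq2 Wald test (adjusted p up to 0.101 over the alternatives run). At chr15:43678913-43679757, nearest to Emc2, a gene for a membrane protein insertase subunit, levels were 0.584 and 1.9 CPM in NT and 5.7, 3.48 and 3.97 at 24 h (log2 fold change 1.95, SE 0.51, adjusted p = 0.0235), lost without NT replicate 1 or 24 h replicate 1 (adjusted p up to 0.463 over the alternatives run). The Neat1 region had 115 and 78 CPM in NANOG-FKBP NT cells, 129, 1121 and 111 at 2 h, 81.6, 539 and 161 at 6 h and 82.4, 851 and 116 at 24 h, so its high values were those of the replicate 2 libraries with 17.6%, 13.2% and 17% mitochondrial counts. It also differed between the OCT4-FKBP NT libraries, at 313 and 122 CPM, and was not called at any time in those lines.

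The responses to OCT4 and to NANOG depletion were compared at each region, with their difference tested as an interaction. The OCT4 response was higher than the NANOG response at 101 regions at 2 h (3.37%) and lower at 1, against 0.907% and 1.61% of all tested regions, with a median difference of 0.35 on the log2 scale. The 1 lower region lay at a start of Mapt, the tau gene, named after its value was seen. At 24 h it was higher at 229 (7.63%) and lower at 61 (2.03%), against 2.89% and 6%, with a median of 0.26. The 2 h count of higher regions was 43, 67 and 26 without OCT4 NT replicate 1, OCT4 2 h replicate 2 and NANOG NT replicate 1. The count of lower regions at 2 h was 2 without OCT4 NT replicate 1, OCT4 NT replicate 2, NANOG NT replicate 1 or NANOG 2 h replicate 2, and 3 without NANOG 2 h replicate 1. The higher count at 24 h was 115 and 107 without OCT4 24 h replicate 2 and NANOG NT replicate 1, and the lower count was 32 and 23 without OCT4 NT replicate 2 and OCT4 24 h replicate 1. Without the 3 mitochondria-rich NANOG-FKBP libraries, 79 were higher and 2 lower at 2 h, and 191 higher and 56 lower at 24 h. For the Scube1 region at chr15:83639883-83641198, the 2 h difference was called (log2 fold change 2.18, SE 0.54, adjusted p = 0.0163) and was lost without OCT4 NT replicate 2, OCT4 2 h replicate 1 or NANOG NT replicate 1 (adjusted p up to 0.157 over the alternatives run). OCT4-FKBP cells are V6.5 and NANOG-FKBP cells E14, so factor and background cannot be told apart.

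Regions that fell late after SOX2 depletion overlapped with those lost late after OCT4 or NANOG depletion. Of the 154 lower at 24 h than at 6 h in SOX2-FKBP, 57 were lost at 24 h in OCT4-FKBP, 37% of the first list and 20.1% of the second, and 3 were gained there. Among all 3000, 9.43% were lost at that time, and among all tested regions 12.7%. With NANOG-FKBP at 24 h, 35 were shared with the lost list, 22.7% of the first and 27.8% of the second, where 4.2% of the 3000 and 2.25% of all tested regions were lost. Of the 39 higher at 24 h, 25 were gained at 24 h in OCT4-FKBP, 64.1% of the first list and 6.23% of the second, where 13.4% of the 3000 and 10.8% of all tested regions were gained. The groups compared share no libraries, although the fit over the 3 lines also takes scaling and spread from the SOX2-FKBP libraries at 6 and 24 h. The Eomes region, at 18.3 and 26.1 CPM in OCT4-FKBP NT cells, had 10.2 and 18.8 at 2 h and 2.17 and 3.45 at 24 h (log2 fold change -2.89, SE 0.33, adjusted p = 1.25e-08 at 24 h). In NANOG-FKBP it had 13 and 16 CPM in NT and 5.34, 8.71 and 5.82 at 24 h (log2 fold change -1.23, SE 0.28, adjusted p = 0.00724), a call lost without NT replicate 2, 24 h replicate 1 or 24 h replicate 3 (adjusted p up to 0.102 over the alternatives run). The Tns4 region fell from 40.3 and 34.5 CPM in NT, through 51.7 and 58.9 at 2 h, to 9.89 and 14.5 at 24 h of OCT4 depletion (log2 fold change -1.52, SE 0.25, adjusted p = 1.28e-05 at 24 h).

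The region chr2:30926895-30927981, in an intron of the prostaglandin E synthase gene Ptges, ended below NT in every line at 24 h, after standing above it at 2 h of SOX2 depletion. It had 17.3 and 18.6 CPM in SOX2-FKBP NT cells, 30.4 and 32.9 at 2 h, 27.1 and 28.6 at 6 h and 12.8 and 12.1 at 24 h. In OCT4-FKBP it had 19.1 and 21 CPM in NT, 14.8 and 19.9 at 2 h, 11.1 and 10.04 at 6 h and 3.12 and 2.63 at 24 h (log2 fold change -2.67, SE 0.28, adjusted p = 2.16e-09 at 24 h). In NANOG-FKBP it fell already at 2 h, from 16.7 and 20.5 CPM to 7.73, 7.34 and 8.82, and was 6.66, 6.1 and 8.33 at 24 h (log2 fold change -1.36, SE 0.23, adjusted p = 0.000169 at 24 h). At chr5:140073351-140074390, in an intron of the spindle checkpoint gene Mad1l1, OCT4 depletion took the level from 19.7 and 15 CPM in NT to 1.9 and 1.64 at 24 h (log2 fold change -3.16, SE 0.34, adjusted p = 4.99e-09). Regions lower at 24 h than at 6 h in SOX2-FKBP held ZIC letters (CAGCAGG) in 37 of 154 cases (24%) and SOX letters in 13 (8.44%), against 14.1% and 4.13% of all 3000 and 12.8% and 10.0% of all tested regions. Those higher at 24 h held the ZEB/SNAI E-box (CACCTG) in 16 of 39 cases (41.0%, Wilson 95% interval 27.1% to 56.6%), against 23.3% of the 3000 and 20.8% of all tested regions. TEAD letters (CATTCC) were in 12 of the 39 (30.8%, 18.6% to 46.4%), an interval that holds the 18.8% of the 3000. The list of 39 fell to 1 without 6 h replicate 2.

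The 198 regions at start sites were counted over protein-coding and long non-coding genes. At protein-coding starts, the 4 most open at 2 h stood at Tnfaip2, Nfe2l1, Nags and Adtrp. At Nfe2l1 (chr11:96822444-96823302), which encodes a regulator of proteasome genes, OCT4-FKBP had 28.8 and 29.3 CPM in NT and 5.15 and 7.88 at 24 h (log2 fold change -2.06, SE 0.27, adjusted p = 1.66e-07). At Nags (chr11:102145083-102148688), a urea-cycle gene, the level went from 20.9 and 22.1 CPM in NT to 36.5 and 36.5 at 6 h (log2 fold change 0.82, SE 0.20, adjusted p = 0.00301). At Adtrp (chr13:41828184-41829338) it went from 3.9 and 5.06 CPM in NT to 9.89 and 22.2 at 24 h (log2 fold change 1.90, SE 0.37, adjusted p = 0.000167). At Tnfaip2 (chr12:111449743-111451064) the SOX2-FKBP level went from 17 and 13 CPM in NT to 29.1 and 24.2 at 2 h.

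Few regions lay nearest to genes of 12 lists of pluripotency, lineage and signalling genes. Naive pluripotency genes had 7 (0.233% of the 3000 against 0.367% of tested regions): 2 each at Esrrb and Sox2 and 1 each at Sall4, Klf4 and Utf1, with 1 gained at 2 h of OCT4 depletion. Formative and primed epiblast genes had 3 (0.1% against 0.186%), neural genes 4 (0.133% against 0.156%), Hippo-YAP targets 3 (0.1% against 0.123%) and immediate early genes 3 (0.1% against 0.125%). Shares above those of tested regions were seen for trophectoderm genes with 10 (0.333% against 0.171%), FGF-ERK feedback genes with 10 (0.333% against 0.191%), 6 of them at Spred2, heat shock and stress genes with 8 (0.267% against 0.0904%), 6 of them at Gadd45g, and SOX genes with 12 (0.4% against 0.252%), 5 of them at Sox9. Actin and adhesion genes had 8 (0.267% against 0.158%), primitive endoderm genes 5 (0.167% against 0.145%) and mesendoderm genes 5 (0.167% against 0.0954%), 3 at Evx1 and 2 at Eomes. Of these 5 mesendoderm regions, which share 2 genes, 3 were lost at 24 h of OCT4 depletion. Of the 3000 regions 9.43% were lost at that time, and of all tested regions 12.7%, and 5 regions are too few to compare. In each list at most 2 regions were gained at 2 h of OCT4 depletion, and at most 3 at 24 h. Over the 3000, 12.9% and 13.4% were gained at these times, and over all tested regions 1.92% and 10.8%.

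Single regions of these lists moved differently from one another. The region chr4:55668895-55670177, 137258 bp upstream of the naive pluripotency factor gene Klf4, fell with NANOG from 9.06 and 4.65 CPM in NT to 2.89, 1.31 and 1.98 at 24 h (log2 fold change -1.58, SE 0.35, adjusted p = 0.00476), a call lost without NT replicate 1 (adjusted p up to 0.425 over the alternatives run). Near Pou3f1, a POU factor of the primed epiblast, chr4:124646310-124647080 had 3.7 and 3.02 CPM in SOX2-FKBP NT cells, 10.6 and 7.8 at 2 h and 11.3 and 10.8 at 24 h. In OCT4-FKBP it had 1.66 and 1.57 CPM in NT and 6.78 and 5.42 at 24 h (log2 fold change 2.05, SE 0.36, adjusted p = 3.68e-05). At chr1:191256458-191258293, 39053 bp upstream of the stress-response factor gene Atf3, OCT4-FKBP had 3.48 and 7.74 CPM in NT and 19.9 and 20.6 at 2 h (log2 fold change 1.87, SE 0.33, adjusted p = 0.00013). In an intron of the FGF receptor gene Fgfr1, chr8:25522610-25523140 had 2.82 and 5.53 CPM in NT and 9.62 and 12.4 at 2 h (log2 fold change 1.42, SE 0.27, adjusted p = 0.000258). The region chr11:113021059-113022309, nearest to Sox9 at 239463 bp, had 17.3 and 18.3 CPM at 2 h, 11.5 and 11.7 at 6 h and 6.95 and 5.55 at 24 h of SOX2 depletion (log2 fold change -0.84, SE 0.20, adjusted p = 0.0225 for 24 h against 6 h), a call lost without 6 h replicate 1, 6 h replicate 2, 24 h replicate 1 or 24 h replicate 2 and under the DESeq2 Wald test (adjusted p up to 0.222 over the alternatives run). The Pou3f1 region stood above NT in both lines at 24 h, and the Sox9 region was below its 2 h level at 6 h and again lower at 24 h.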

How the data were processed

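ATAC-seq was performed on SOX2-FKBP, OCT4-FKBP and NANOG-FKBP cells. As given in the methods and the submitters' processing notes, the authors mapped reads to mm10 with BWA 0.7.17-r1188, kept mapping quality of at least 10 with SAMtools 1.10, removed duplicates with Picard 2.12.0 and called peaks with MACS2 on merged libraries. The deposited count table holds raw counts of overlapping fragments per peak for 31 of the 45 samples, and the other 14 were not analysed here. The deposited peak file gives fold enrichment over background (a ratio) and −log10 p and q values per peak, of which only the positions and summits were used.

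CPM were counts divided by the library total outside mitochondrial peaks, on the usual scale. Counts were tested with the quasi-likelihood test of edgeR 4.0.16 (TMM scaling, R 4.3.3) in 2 fits: 12 SOX2-FKBP libraries (peaks with over 10 counts in more than 2 libraries) and 27 libraries of 3 lines at NT, 2, 6 and 24 h (more than 6 libraries). P-values were adjusted over all tested peaks by Benjamini-Hochberg with a threshold of 0.05. Peaks were annotated with GENCODE vM21 on GRCm38, the assembly of mm10, and named by the closest protein-coding start. Counting intervals are Wilson intervals.

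The tests were checked on simulated data. In every group replicates 1 and 2 held different counts at 171545 or more peaks. Same-numbered libraries were compared by the correlation of their deviations from group means: it was 0.155 to 0.385 in OCT4-FKBP, over 0.1 in every pair, and did not reach that in every pair of SOX2-FKBP or NANOG-FKBP. The alternatives were DESeq2 1.42.0, other scalings and filters, GC offsets, the replicate block, separate fits and leaving out libraries.

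The 26 searched patterns, on both strands, were those given in the report with the KLF pattern GGGNGTGG, the TFAP2 pattern GCCNNNGGC, the OTX2 pattern GGATTA, the forkhead pattern TGTTTAC, the GATA factor pattern AGATAA, the NFY pattern CCAATCA, the E-box pattern CACGTG, the CRE pattern TGACGTCA, the ETS factor pattern CCGGAA, the heat shock factor pattern GAANNTTC, the T-box pattern AGGTGTG and the SRF CArG box. The regions, gene lists and patterns were chosen with earlier results of these data known. Regions named in the text were the 6 highest at 2 h, the 6 largest ratios at 8 CPM or more, the smallest adjusted p per comparison (4 each way for OCT4-FKBP at 2 h and up to 3 each way otherwise), the 4 highest at protein-coding starts, the highest per gene list and those nearest the thresholds.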

Additional observations from a re-analysis of the deposited data

Results flagged for a closer look

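The difference between the OCT4 and NANOG responses was tested directly as an interaction in edgeR. At 2 h 101 of the 3000 regions (3.37%) had the higher response to OCT4 depletion and 1 the lower, against 0.907% and 1.61% of all tested regions. At 24 h 229 (7.63%) had the higher response to OCT4 depletion and 61 (2.03%) the lower, against 2.89% and 6%. A fall after NANOG depletion also enters this difference. At the 101 regions the median log2 fold change at 2 h was 1.17 after OCT4 and -0.68 after NANOG depletion. At the 229 regions it was 1.39 and -0.45 at 24 h. These results were set apart because 2 lines differed under the same contrast. The OCT4-FKBP libraries were deeper than those of NANOG-FKBP, with 6378962 to 17575631 counts against 1817191 to 12437876, and their part in the difference was not tested. The lines also differ in genetic background, which cannot be told apart from the depleted factor.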

How the results depend on the processing

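The choice of regions depended on the replicates: 984 met the rule in both replicates on their own, 2086 with TMM library sizes, and leaving out a replicate number gave 4030 to 4699. The median level relative to 2 h was 0.914 at 6 h, 0.933 with TMM library sizes and 0.908 to 0.909 without a replicate, and 0.801 at 24 h, 0.759 to 0.838 without a replicate. Motif ratios over whole peaks were 2.10 for ESRRB, 1.43 for the half-site, 1.37 for TCF/LEF, 1.18 for GRHL and 0.81 for SOX, against 2.54, 1.80, 1.77, 1.54 and 0.41 at the summits.

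In OCT4-FKBP, the replicate block gave 725 gained and 61 lost at 2 h, 941 and 128 at 6 h and 570 and 389 at 24 h, and with GC offsets 611 and 73 at 2 h, 139 lost at 6 h and 617 gained at 24 h. At 2 h DESeq2 gave 15 lost, and a separate fit of the line 239 gained and 14 lost. Without single libraries, gained ran from 167 to 269, 396 to 506 and 223 to 381 and lost from 11 to 25, 29 to 80 and 118 to 289 at 2, 6 and 24 h. The median log2 fold change of the 3000 ran from 0.30 to 0.46 at 2 h, 0.29 to 0.45 at 6 h and -0.14 to 0.21 at 24 h over all settings.

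In NANOG-FKBP same-numbered libraries correlated at 0.038 to 0.103 with NT and 0.194 to 0.237 among treated libraries, and what a number shares is not given in the labels. The block gave 30 gained and 61 lost at 2 h, 16 and 97 at 6 h and 21 and 259 at 24 h, and with GC offsets 24 and 60, 19 and 96, and 24 and 250. Gained counts were 1 at 2 h in a separate fit, 1 with DESeq2 and 2 in a separate fit at 6 h, and 1 with DESeq2, 4 with column totals and 3 in a separate fit at 24 h. Without the mitochondria-rich libraries, 1 and 2 were gained at 2 and 6 h. Single libraries moved gained from 0 to 3, 0 to 3 and 0 to 9 and lost from 5 to 25, 16 to 32 and 55 to 119. The difference of OCT4 and NANOG responses had 66 higher and 3 lower at 2 h with column totals, 328 and 24 with the block, 297 and 25 with the block and GC offsets, 4 lower with GC offsets and 2 lower without the mitochondria-rich libraries. At 24 h the block gave 450 higher and 105 lower, and with GC offsets 437 and 108. Without single libraries, 26 to 136 were higher and 1 to 3 lower at 2 h, and 107 to 244 and 23 to 58 at 24 h.

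In SOX2-FKBP same-numbered libraries correlated at 0.087 to 0.246, and what a number shares is likewise not given. At 6 h against 0.5 h, DESeq2 gave 20 higher and 5 lower, the replicate block 287 and 54, block and GC offsets 299 and 62, the compared groups alone 169 and 40, and GC offsets 22 lower. At 24 h against 0.5 h, DESeq2 gave 178 higher and 221 lower, and block and GC offsets 564 higher. At 24 h against 6 h, DESeq2 gave 9 higher and 62 lower, the block 142 and 397, block and GC offsets 149 and 396, and the compared groups alone 63 higher. Without single libraries, 16 to 36 were higher and 2 to 6 lower at 6 h against 0.5 h, 168 to 355 and 207 to 339 at 24 h against 0.5 h, and 1 to 40 and 30 to 79 at 24 h against 6 h. A group left with 1 library was assumed to vary like the others. The causes were not tested.

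The GC offsets without the block and the fits without the mitochondria-rich libraries were chosen after seeing the data. Over the named regions, 2195 comparisons of a value with an alternative kept direction and side of the threshold, 281 lost the call, 11 gained it and 3 reversed. All 3 were the Neat1 region at 2 h of OCT4 depletion, at a log2 fold change of 0.01 in the reported fit, -0.036 with column totals, -0.51 to 0.87 without single libraries, and below 0 without OCT4 NT replicate 2 or 2 h replicate 1. The shallowest library, of NANOG-FKBP, had 1817191 counts, which limits its precision.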
